A study of Rattus norvegicus with 56 samples.

Results

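Trimethylation of lysine 4 of histone H3 (H3K4me3) was compared between the ipsilateral and the contralateral side of the brain in rats with an intracerebral haemorrhage, that is, bleeding within the brain. The comparison covers every peak of the 2 authors' peak lists for this mark and age: 30356 ipsilateral and 35063 contralateral peaks, 65419 in all. These are 2 of the 16 lists of the series, and they come from 4 ChIP libraries among the 56 libraries of ChIP and input. The labels give 21 months as the age of these rats, while the series text gives 22 months. Read beside them are the H3K9ac and H3K27me3 lists of both sides at 21 months. H3K4me3 lists of rats labelled 13 months, also ipsilateral and contralateral with no plasma named, bring the lists used to 8. Both 21-month H3K4me3 groups carry the disease and received no agent, and the labels name the same Millipore antibody for both. The reference is therefore the other side of a brain with a bleed and not an uninjured brain. The labels name whole brain tissue of a side, and give no strain, sex, region, method of inducing the bleed or time after it. They also do not say whether the 2 ChIP libraries of a side came from separate animals, or whether both sides came from the same ones.

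H3K4me3 is laid down around transcription start sites, where it marks active promoters and, together with the Polycomb mark H3K27me3, promoters held poised. Long H3K4me3 domains are known at genes that define a cell's identity, and short weak ones at enhancers and at rarely used starts. H3K9ac, acetylation of lysine 9 on the same histone, accompanies active promoters and enhancers. H3K27me3 is the repressive mark of the Polycomb complexes. In a bulk tissue sample, fewer cells carrying a mark and less of the mark per cell cannot be told apart, and the lists hold no measure of which cells each side contained.

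Each side is 1 peak list, called on its 2 ChIP libraries pooled against its 2 pooled input libraries, so no value below has a spread over replicates and no test between the sides was made. Intervals are 95% Wilson intervals over peaks or regions and cover counting error only. The ipsilateral list rests on 71357444 ChIP tags and 79418776 input tags kept after removal of duplicates, and the contralateral list on 77902707 and 94960016. Duplicates made up 32% of ipsilateral and 36% of contralateral ChIP tags. The part of these depths in the differences between the sides was not tested, and repeats with equal numbers of peaks are given for the shared and matched peaks here and for the other results in the closing section. No annotation on the build of the peak coordinates was used here, so peaks are given by position and not by gene, and the markers of brain cell types could not be looked up. Peaks covered 31.3 Mb on the ipsilateral and 37.5 Mb on the contralateral side, 1.16% and 1.39% of the effective genome size given to the peak caller.

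Most H3K4me3 peaks lay at the same places on both sides, and the peaks found on a single side were short and weak. Of the ipsilateral peaks, 5587 (18.4%, interval 18.0% to 18.8%) did not touch a contralateral peak by even 1 bp. Of the contralateral peaks, 12183 (34.7%, interval 34.2% to 35.2%) did not touch an ipsilateral peak. These peaks are called ipsilateral-only and contralateral-only here, and all others shared. The side-only peaks covered 1.28 Mb of the 31.3 Mb on the ipsilateral side and 3.28 Mb of the 37.5 Mb on the contralateral side, so they are many by number and few by bases.

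The median length was 195 bp for ipsilateral-only and 220 bp for contralateral-only peaks, against 1010 bp and 1305 bp for shared peaks. The middle 50% of ipsilateral-only peaks ran from 164 to 251 bp and that of contralateral-only peaks from 170 to 314 bp. A length of 2 sequenced fragments, by the fragment size the peak caller estimated, is 306 bp on the ipsilateral and 288 bp on the contralateral side. Of the ipsilateral-only peaks 87.0% were shorter than this, and of the contralateral-only peaks 70.0%, against 16.6% and 7.09% of shared peaks. The median pileup, the number of overlapping tags at the summit, was 18 tags in ipsilateral-only and 25 in contralateral-only peaks, where the lowest pileup in either list was 12. Shared peaks had median pileups of 134 and 181 tags.

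Fold enrichment is the authors' value for the ChIP signal over the local background of a peak, and it is used here only to describe and rank the peaks of a list. The median fold was 3.17 in ipsilateral-only and 3.10 in contralateral-only peaks, against 8.04 and 12.4 in shared peaks. With each list cut into 10 groups of equal size by fold, the top 4 groups of the ipsilateral list, folds from 8.25 up, held 1 ipsilateral-only peak. The top 4 groups of the contralateral list, folds from 9.41 up, held 7 contralateral-only peaks. In the lowest group, folds up to 2.69 and 2.63, 34.3% of ipsilateral and 82.7% of contralateral peaks were side-only. The strong end of both lists was therefore nearly all shared, and the weak end of the contralateral list was mostly its own. Cutting the contralateral list to its 30356 peaks of highest −log10 q-value removed part of that weak end: 73.8% of the peaks kept had an ipsilateral partner, compared with 65.3% in the full list.

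**Figure D1:**
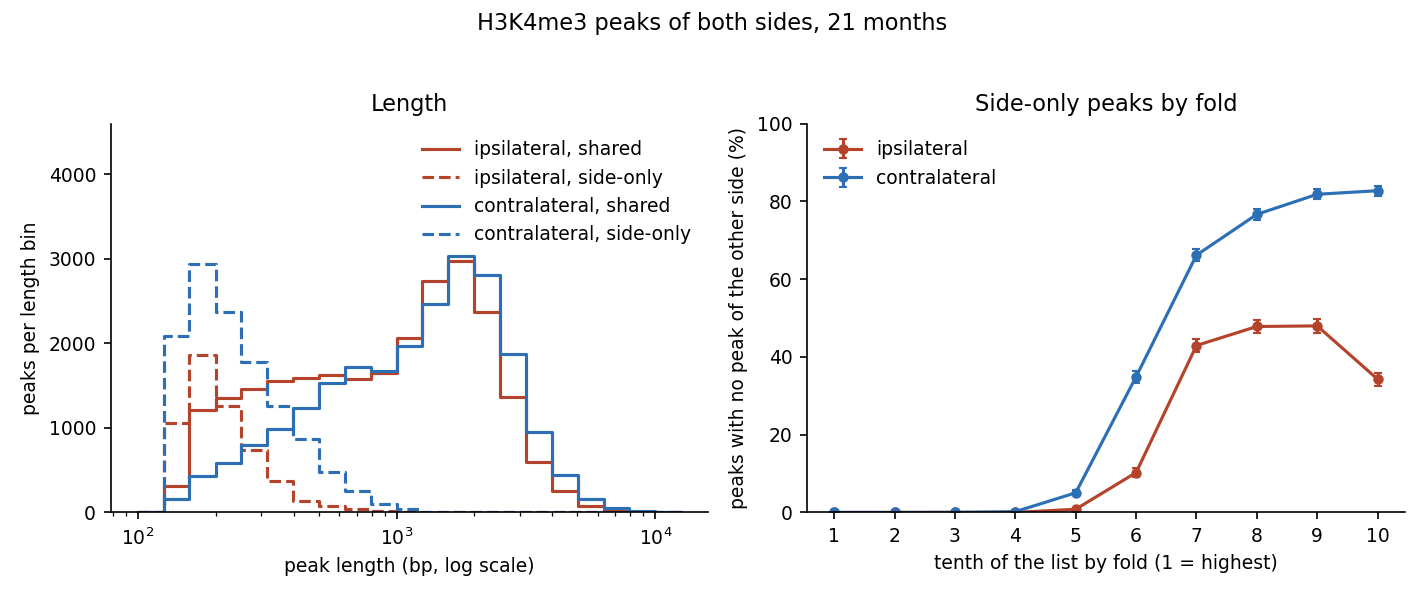
Left, number of H3K4me3 peaks per length bin (bp, log axis) for shared (solid) and side-only (dashed) peaks of each list at 21 months. Right, percent of peaks with no peak of the other side in each of 10 equal groups of a list ranked by the authors' fold, with 95% Wilson intervals (counting error only). Side-only peaks centre near 200 bp (medians 195 and 220 bp), and they are nearly absent from the top 4 groups by fold.

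The 5 ipsilateral-only peaks of highest fold were chosen for that value, so their folds are a description. The strongest, chr1:199495369-199498026, was also the longest at 2658 bp, with a fold of 10.5 and a pileup of 83 tags. It carried H3K9ac on the ipsilateral side alone (fold 3.84 over 1342 bp) and H3K27me3 on both sides (folds 4.12 and 3.19). At 13 months the same place had an ipsilateral H3K4me3 peak of 1752 bp with a fold of 6.30 and a contralateral one of 319 bp with a fold of 3.24. In both ages, then, the ipsilateral peak was the longer and the contralateral one short or not called.

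The next ipsilateral-only peaks were weaker and shorter. The peak chr10:5463613-5463806 (194 bp, fold 7.99) had ipsilateral H3K9ac at a fold of 2.09, contralateral H3K27me3 at a fold of 9.58, and no 13-month H3K4me3 peak on either side. The peak chr14:23604630-23604877 (248 bp, fold 7.28) had neither second mark on either side, and at 13 months it was called on both sides. Neither second mark was called at chr8:96554824-96555670 (847 bp, fold 7.14) or chr13:55170949-55171712 (764 bp, fold 6.71), and both were ipsilateral at 13 months without a contralateral peak. The chromosome 13 peak overlapped a 13-month ipsilateral peak of 3766 bp with a fold of 11.3, and at 21 months it lay 205 bp from a shared peak. It thus lay beside a peak present on both sides at 21 months.

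The 5 contralateral-only peaks of highest fold had folds from 10.1 to 11.3 and lengths from 175 to 584 bp. They were chr2:155281994-155282180 (187 bp, fold 11.3), chr8:87750388-87750743 (356 bp, fold 11.2), chr8:118574182-118574356 (175 bp, fold 10.9), chr2:52718598-52718979 (382 bp, fold 10.5) and chr20:7717516-7718099 (584 bp, fold 10.1). Of these 5, 4 overlapped contralateral H3K27me3, which 36.7% of all contralateral peaks did. The most marked was the chromosome 20 peak, over 5001 bp of contralateral H3K27me3 peaks with a highest fold of 19.9. The ipsilateral H3K27me3 fold there was 7.02. The highest fold of the whole H3K27me3 list was 43.6 contralaterally and 18.9 ipsilaterally, so folds are not compared between these lists. Among the 5, contralateral H3K9ac was called only at the chromosome 8 peak of fold 11.2 (fold 5.66, and 6.26 on the ipsilateral side). Over all contralateral peaks 69.2% had it. The chromosome 2 peak of fold 10.5 and the chromosome 20 peak had H3K9ac on the ipsilateral side alone, at folds of 3.92 and 4.45. The remaining ones, chr2:155281994-155282180 and chr8:118574182-118574356, had it on neither side. The chromosome 2 peak of fold 10.5 was called at 13 months on the ipsilateral side (fold 8.33) and not on the contralateral side, the reverse of its 21-month state.

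Side-only peaks carried the active mark H3K9ac much less often than shared peaks, and contralateral-only peaks carried both second marks more often than ipsilateral-only ones. Over all ipsilateral H3K4me3 peaks 73.1% overlapped an H3K9ac peak of the same side, and over all contralateral ones 69.2%. Among ipsilateral-only peaks the share was 11.4% (636 peaks, interval 10.6% to 12.2%), and among contralateral-only peaks 33.2% (4048 peaks, interval 32.4% to 34.1%). Shared peaks stood at 87.0% and 88.4%. The H3K9ac lists differ in size, with 102607 ipsilateral and 120348 contralateral peaks from 66910243 and 99213634 ChIP tags. Read against the H3K9ac list of the opposite side, the shares were 13.7% of ipsilateral-only and 31.1% of contralateral-only peaks, beside 73.5% and 69.1% of all peaks of the 2 lists. With the H3K9ac lists cut to equal numbers of peaks, the same-side shares were 11.4% of ipsilateral-only and 30.8% of contralateral-only peaks. The opposite-side shares were not repeated in this way, and the part of ChIP depth in all these shares was not tested. Both H3K4me3 lists were also cut to peaks with a −log10 q-value of at least 5, and side-only peaks were defined anew. A peak whose only partners fell below this limit then counted as side-only. The same-side shares were 22.5% of ipsilateral-only and 46.4% of contralateral-only peaks so defined.

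For H3K27me3 the background was 28.3% of all ipsilateral and 36.7% of all contralateral H3K4me3 peaks, on the same side. Ipsilateral-only peaks lay below it, with 16.0% (interval 15.1% to 17.0%). Contralateral-only peaks were near it, with 34.2% (interval 33.4% to 35.1%), and shared peaks had 31.1% and 38.0%. Against the H3K27me3 list of the opposite side, 14.7% of ipsilateral-only and 32.9% of contralateral-only peaks overlapped, beside 32.9% and 32.0% of all peaks of the 2 lists. The H3K27me3 lists held 300668 ipsilateral and 367061 contralateral peaks from 117740131 and 73142126 ChIP tags.

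The marks were then combined per peak. Of the ipsilateral-only peaks 4170 (74.6%) had neither second mark on their side, 781 had H3K27me3 without H3K9ac, 521 had H3K9ac without H3K27me3, and 115 had both. Of the contralateral-only peaks 4922 (40.4%) had neither, 3213 had H3K27me3 without H3K9ac, 3094 had H3K9ac without H3K27me3, and 954 had both. Over all peaks, 21.2% of ipsilateral and 17.1% of contralateral ones had neither, and 5.71% and 13.7% had H3K27me3 without H3K9ac. Among contralateral-only peaks, the Polycomb-marked and the acetylated ones were thus of like number. Of shared peaks, H3K9ac without H3K27me3 was the commonest state, at 59.8% of ipsilateral and 57.3% of contralateral peaks.

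Where H3K9ac was called on a single side, that side was more often the contralateral one in both side-only groups. Of the 5587 ipsilateral-only peaks 265 had an H3K9ac peak on the ipsilateral side alone, 395 on the contralateral side alone and 371 on both. Over all 30356 ipsilateral peaks these counts were 1857, 1978 and 20328. Of the 12183 contralateral-only peaks 1381 had H3K9ac on the contralateral side alone, 1127 on the ipsilateral side alone and 2667 on both. Over all 35063 contralateral peaks these counts were 2535, 2507 and 21728. The excess was thus contralateral at ipsilateral-only and at contralateral-only peaks alike. The contralateral H3K9ac list is also the larger one, and its part in this excess was not tested.

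The second marks varied with the length of the H3K4me3 peak, as the plot of second marks by length shows. H3K9ac was on 7.3% of ipsilateral-only peaks under 200 bp, on 24.2% of those from 300 to under 500 bp and on 36.7% of those from 500 to under 1000 bp. In contralateral-only peaks the same classes had 22.5%, 46.4% and 56.2%. Shared peaks of the same lengths had 49.8%, 73.1% and 90.2% on the ipsilateral side, so side-only peaks had less H3K9ac than shared peaks of equal length in each of these classes. H3K27me3 was on 26.0% of contralateral-only peaks under 200 bp and on 55.6% of those from 500 to under 1000 bp, against 18.4% and 46.0% of contralateral shared peaks. In ipsilateral-only peaks H3K27me3 was at 13.4% and 28.1% in these classes, below the 26.6% and 40.1% of ipsilateral shared peaks. A longer peak has more room to touch a peak of another list, which can raise a share with length.

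**Figure D2:**
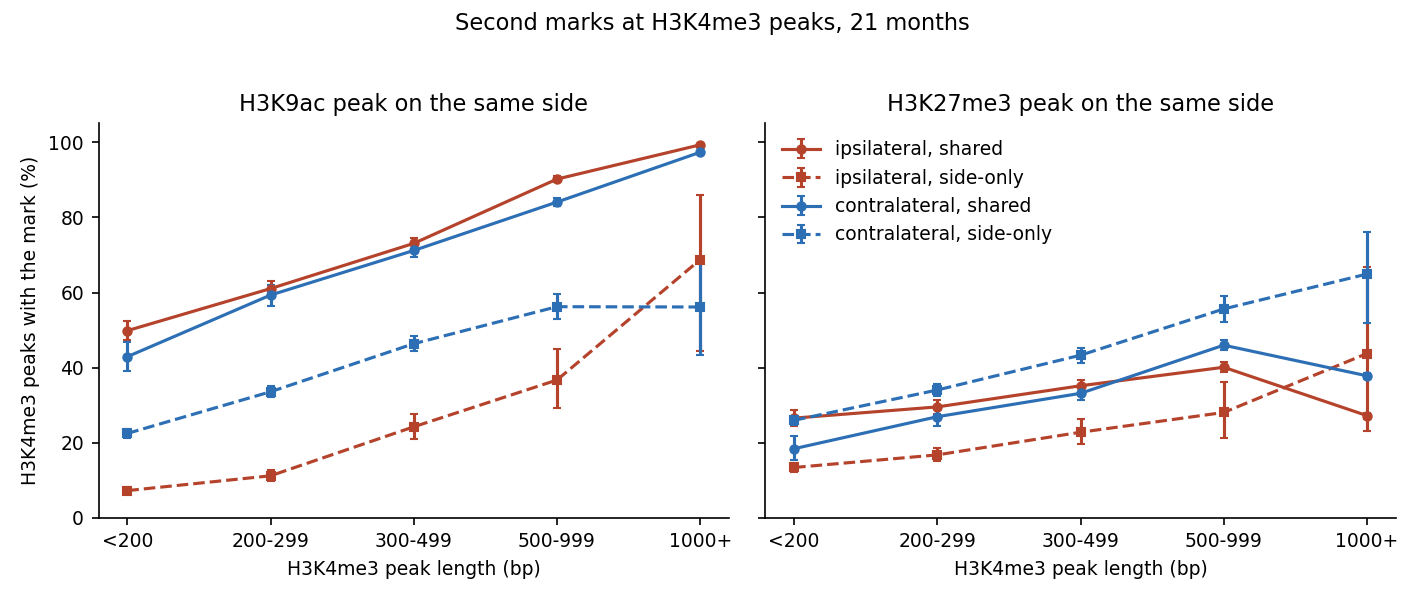
Percent of H3K4me3 peaks that overlap an H3K9ac peak (left) or an H3K27me3 peak (right) of the same side at 21 months, by length of the H3K4me3 peak in bp, for shared (solid) and side-only (dashed) peaks of each list, with 95% Wilson intervals. For H3K9ac both dashed lines lie under the solid ones in each class, and for H3K27me3 the contralateral-only line is the highest from 200 bp on.

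The 13-month lists of the same mark give a reading that the split into shared and side-only peaks did not use. Over all 21-month ipsilateral peaks, 73.6% overlapped a 13-month ipsilateral peak and 69.4% a 13-month contralateral one. Ipsilateral-only peaks did so in 12.8% (interval 11.9% to 13.7%) and 4.03% (interval 3.54% to 4.58%) of cases, so the 13-month peak was more often on the same side. Over all 21-month contralateral peaks, 59.1% overlapped a 13-month contralateral and 61.9% a 13-month ipsilateral peak. Contralateral-only peaks did so in 8.41% (interval 7.93% to 8.92%) and 10.4% (interval 9.92% to 11.005%) of cases, slightly more often on the opposite side. With both 21-month lists cut to a −log10 q-value of at least 5, side-only peaks were again defined anew. These shares were then 27.5% and 9.0% for ipsilateral-only and 17.1% and 20.7% for contralateral-only peaks, in the same order. In the full lists, 4725 ipsilateral-only and 10233 contralateral-only peaks had no 13-month peak on either side. The 13-month lists were called in a processing run of their own, going by the folder in their headers, and age and run therefore cannot be told apart.

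The match to the 13-month ipsilateral list was higher in longer peaks, among ipsilateral-only peaks as over the whole list. Among ipsilateral-only peaks it was 6.5% for the 2924 peaks under 200 bp, 10.98% from 200 to under 300 bp, 32.9% from 300 to under 500 bp, 69.8% for the 139 peaks from 500 to under 1000 bp and 16 of 16 for those of 1 kb or more. Over all ipsilateral peaks the same classes had 17.5%, 35.1%, 69.2%, 94.5% and 12459 of 12464. The match of ipsilateral-only peaks to the 13-month contralateral list stayed between 2.9% and 10.8%, where over all ipsilateral peaks it went from 12.7% in the shortest class to 99.5% in the longest. In contralateral-only peaks the shares for the 2 sides lay closer together: from the shortest to the longest class, 4.0% to 31.6% had a 13-month contralateral peak and 5.4% to 35.1% a 13-month ipsilateral one. At both ages, the longer ipsilateral-only peaks were thus present ipsilaterally, and contralateral-only peaks under 500 bp were slightly more often ipsilateral than contralateral at 13 months.

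**Figure D3:**
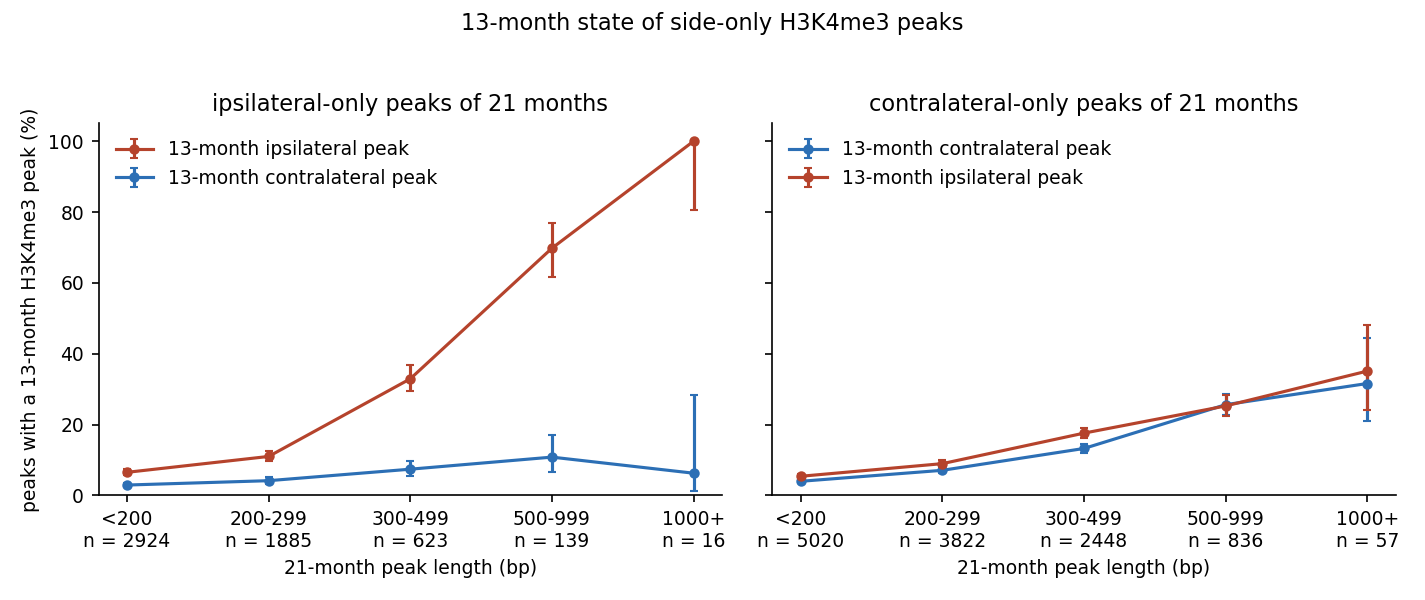
Percent of ipsilateral-only (left) and contralateral-only (right) H3K4me3 peaks of 21 months that overlap a 13-month H3K4me3 peak of each side, by length in bp, with 95% Wilson intervals and the number of peaks per class. In the left panel the 13-month ipsilateral line reaches 16 of 16 peaks while the contralateral one stays at or below 10.8%, and in the right panel both lines stay at or below 35.1%.

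Only 16 ipsilateral-only peaks, and 57 contralateral-only ones, were 1 kb or longer, against 12464 and 13826 peaks of that length in the lists. All 16 ipsilateral-only peaks overlapped a 13-month ipsilateral peak (the interval begins at 80.6%), and 1 of them, the chromosome 1 peak of 2658 bp, also a contralateral one. Among all 12464 ipsilateral peaks of this length, 12459 had a 13-month ipsilateral and 12403 a 13-month contralateral peak. In their 13-month state, the 16 thus stood apart by the rarity of a contralateral peak and not by the ipsilateral one. The 16 lay on 10 chromosomes, with folds from 2.34 to 10.5. H3K9ac was found on the ipsilateral side alone at 7 of them, on both sides at 4, on the contralateral side alone at 2 and on neither at 3. Over all 12464 ipsilateral peaks of this length the counts were 189, 12185, 64 and 26 in the same order.

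Examples show how these regions looked. The peak chr9:81655760-81657829 (2070 bp, fold 5.69) had ipsilateral H3K9ac of fold 6.09 over 2524 bp and contralateral H3K9ac of fold 3.11 over 1982 bp, with a 13-month ipsilateral H3K4me3 peak of 1758 bp. The peak chr3:121880646-121882686 (2041 bp, fold 5.70) had no H3K9ac on either side and H3K27me3 on the contralateral side alone, with a 13-month ipsilateral peak of 1368 bp. The peak chr1:73395661-73397887 (2227 bp, fold 5.55) had no H3K9ac, a pileup of 27 tags and a 13-month ipsilateral peak of 296 bp, and it lay 473 bp from a shared peak. A pair of neighbours on chromosome 16, chr16:20561187-20562370 and chr16:20562542-20564076, had folds of 3.00 and 3.93 and lay over the same 13-month ipsilateral peak of 2885 bp and fold 7.56, so the 16 peaks stand for 15 separate places at 13 months. Both members of that pair had H3K9ac on the ipsilateral side alone.

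The 57 contralateral-only peaks of 1 kb or more lay on 17 chromosomes, with folds from 1.67 to 6.62. Of these, 18 overlapped a 13-month contralateral and 20 a 13-month ipsilateral peak, and 30 overlapped neither. Contralateral H3K27me3 was on 64.9% of them, beside 37.9% of all contralateral peaks of that length. H3K9ac was on the contralateral side alone at 4, on the ipsilateral side alone at 14 and on both sides at 28, where all 13826 contralateral peaks of this length gave 101, 312 and 13334. The longest were chr14:82602453-82604228 (1776 bp, fold 4.11), chr12:22834839-22836442 (1604 bp, fold 4.76) and chr6:146785507-146787043 (1537 bp, fold 5.03). Each lay in strong H3K27me3 on both sides, with contralateral folds of 13.8, 12.2 and 19.7 and ipsilateral folds of 7.44, 6.23 and 10.4. These folds describe each H3K27me3 list and are not compared between the sides. All 3 also had H3K9ac on the ipsilateral side, at folds of 1.78, 2.91 and 2.71, as did 98.7% of all contralateral peaks of that length. Contralateral H3K9ac was called at the chromosome 12 peak alone among the 3 (fold 2.18 over 419 bp), beside 97.2% of all contralateral peaks of that length.

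Ipsilateral-only peaks lay further from shared peaks than contralateral-only peaks did. Of the ipsilateral-only peaks 11.1% lay within 1 kb of an ipsilateral shared peak and 47.0% over 100 kb from one, with a median distance of 84314 bp. Of the contralateral-only peaks 21.5% lay within 1 kb and 28.5% over 100 kb away, with a median of 25428 bp. Of those of 1 kb or more, 4 of 16 ipsilateral-only and 24 of 57 contralateral-only peaks lay within 1 kb of a shared peak. The spacing of all peaks in a list was not measured, so no background stands beside these distances. H3K9ac was less frequent with distance: 31.9% of ipsilateral-only peaks within 1 kb had it and 1.5% of those beyond 100 kb, and in contralateral-only peaks 49.2% and 10.8%. H3K27me3 varied less, from 18.2% to 11.8% in ipsilateral-only and from 27.9% to 28.3% in contralateral-only peaks, where it was highest at 1 to 10 kb with 41.5%. The contralateral-only peaks beyond 100 kb therefore seldom had the active mark, which 69.2% of all contralateral peaks had. The Polycomb mark was on 28.3% of them, below the 36.7% of all contralateral peaks.

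Where both sides had a peak, the contralateral one was usually the longer. Overlapping peaks of both lists were joined, which gave 22575 regions with peaks on both sides. In 18456 of them (81.8%, interval 81.2% to 82.3%) the contralateral peaks covered more bases, in 4068 the ipsilateral ones did, and 51 were equal. The median region was 1169 bp on the ipsilateral and 1332 bp on the contralateral side, with a median difference of 139 bp and a median ratio of contralateral to ipsilateral bases of 1.12. With 30356 peaks in each list the share was 82.2%.

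The wider contralateral peaks kept the position of the ipsilateral ones. Among the 20398 regions with 1 peak on each side, the summits were a median of 29 bp apart, and 91.7% lay within 200 bp of each other. The contralateral peak reached a median of 48 bp further at its lower coordinate and 48 bp further at its upper one. It contained the whole ipsilateral peak in 59.3% of these regions, and the ipsilateral peak contained the contralateral one in 7.49%. In 1889 of all regions several ipsilateral peaks lay in 1 contralateral peak, and in 244 the reverse held. The contralateral peaks were thus wider at both edges and less often broken up.

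The difference was present in every size class, from 63.7% of the 1846 regions with under 300 bp to 92.1% of the 178 regions with 5 kb or more. The median ratio was highest, 1.33, in regions from 300 to under 500 bp, and 1.08 in those of 5 kb or more, where the median difference was 451 bp. At 13 months the direction was the opposite. Of 21259 regions with peaks on both sides 34.8% were longer on the contralateral side, with a median ratio of 0.957, and the share lay between 32.7% and 39.2% in each size class. Kept ChIP tags were 91768484 contralateral and 86748494 ipsilateral at 13 months, and the part of depth in these lengths was not tested.

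**Figure D4:**
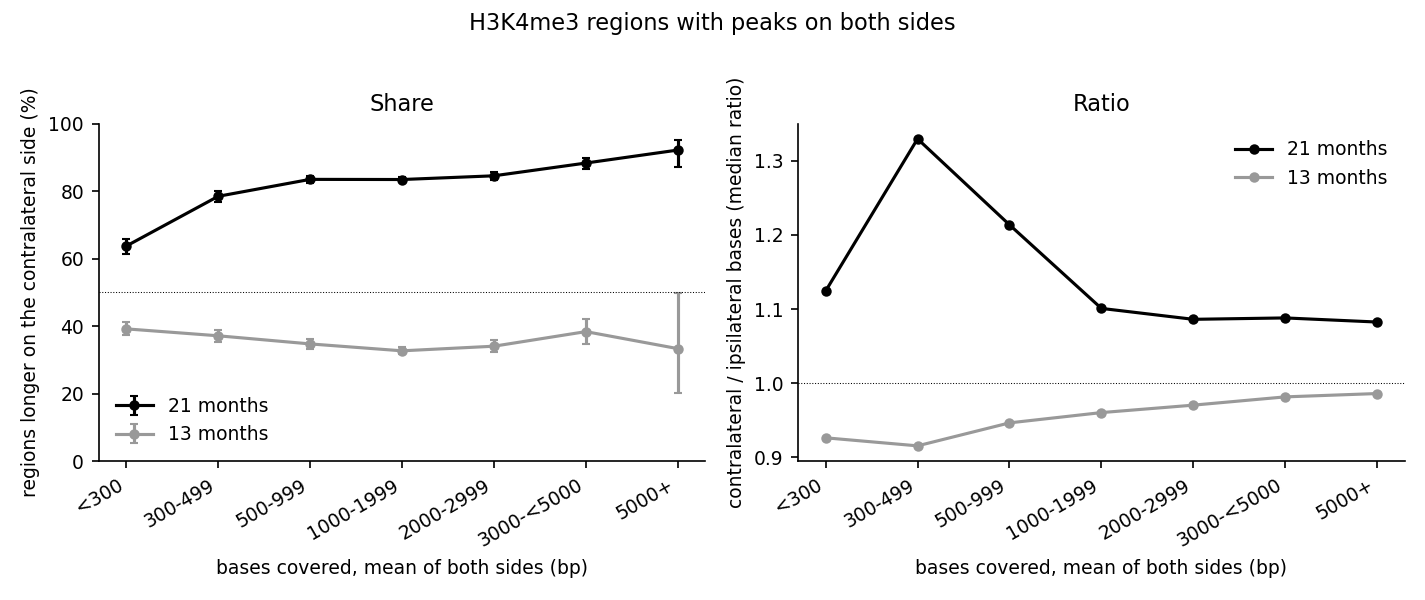
Left, percent of regions with H3K4me3 peaks on both sides in which the contralateral peaks cover more bases, by mean bases covered (bp), at 21 months (black) and 13 months (grey), with 95% Wilson intervals and a dotted line at equal numbers. Right, median ratio of contralateral to ipsilateral bases. The 21-month shares are 63.7% to 92.1% and the 13-month shares 32.7% to 39.2%.

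The longest H3K4me3 peaks followed the same order. Peaks of 5 kb or longer numbered 92 (0.303% of the list) ipsilaterally and 230 (0.656%) contralaterally. At 13 months they numbered 42 and 25, or 1.25 and 0.745 per 1000 peaks of those lists. The peaks next to this limit were 5006 bp inside and 4999 bp outside it on the ipsilateral side, and 5001 and 4989 bp contralaterally, so it cuts through a continuous range of lengths. All of the 21-month ones were shared, and all had H3K9ac peaks on both sides and 13-month H3K4me3 peaks on both sides. Among all peaks of 1 kb or more, 12448 of 12464 ipsilateral and 13769 of 13826 contralateral ones were shared. Of all peaks of that length, 12185 and 13334 had H3K9ac on both sides, and 12399 and 13629 had 13-month peaks on both sides. Like most peaks of 1 kb or more, those of 5 kb or longer were thus places marked in all 4 H3K4me3 lists. What differed between the sides was the length of the call. Only 88 of the 230 contralateral ones had an ipsilateral partner of 5 kb or more, while 88 of the 92 ipsilateral ones had such a contralateral partner.

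Many of the long contralateral peaks were called in pieces on the ipsilateral side. Of the 230 contralateral peaks 135 overlapped several ipsilateral peaks, up to 5, and the longest of these partners had a median length of 4662 bp. Of the 92 ipsilateral peaks 90 had a single contralateral partner. With peaks of a list at most 1 kb apart joined, the counts were 308 ipsilateral and 574 contralateral regions of 5 kb or more, a ratio nearer to 1 than before. At 13 months the joined counts were 219 ipsilateral and 193 contralateral, also nearer to each other. H3K27me3 of the same side lay on 45.7% (interval 35.9% to 55.8%) of the long ipsilateral and 60.9% (interval 54.4% to 66.9%) of the long contralateral peaks, beside 28.3% and 36.7% of all peaks of the 2 lists. Against the H3K27me3 list of the opposite side the shares were 56.5% and 48.3%. Read on the ipsilateral H3K27me3 list the long peaks thus stood at 45.7% and 48.3%, and on the contralateral one at 56.5% and 60.9%, so most of the gap went with the list used.

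The longest contralateral peak, chr2:11864677-11877133, was 12457 bp with a fold of 15.8. On the ipsilateral side 4 peaks covered 10617 bp of H3K4me3 there, the longest of them 4790 bp. The contralateral peak chr12:13801625-13812052 (10428 bp) lay over 2 ipsilateral peaks of 10280 bp in sum, and chr1:221150545-221160510 (9966 bp) and chr10:109416685-109426354 (9670 bp) over 4 ipsilateral peaks each, of 9067 and 8661 bp in sum. The remaining one of the 5 longest, chr1:141223007-141233250 (10244 bp), matched the longest ipsilateral peak, chr1:141223070-141233123 (10054 bp), nearly base for base. It lay in H3K27me3 of 10440 bp on the contralateral and 10721 bp on the ipsilateral side and had H3K9ac over 9506 and 10239 bp.

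The other 4 longest ipsilateral peaks each had a single contralateral partner of much the same length. These were chr16:83822841-83831861 (9021 bp, partner 9081 bp), chr14:55077773-55086487 (8715 bp, partner 8757 bp), chr15:67552579-67561205 (8627 bp, partner 8368 bp) and chr18:49932686-49940512 (7827 bp, partner 8188 bp). At the longest domains, the bases covered thus differed between the sides by a small part of their length, even where the number of calls differed.

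Within the matched regions the order of the folds was largely the same on both sides. Spearman's rho between the 2 lists' folds across the 22575 regions was 0.852, given as a description, since regions of a list share its libraries and depth. In lists cut to 30356 peaks each, the rank of a region differed between the sides by a median of 2768 places. Of the 998 regions in the top 1000 ranks of the ipsilateral list, 332 were also in the top 1000 of the contralateral list. Over all 22168 matched regions of these cut lists, 1001 were in the contralateral top 1000.

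The regions of 1 kb or more with the largest shifts of rank were picked for that value. The largest shifts towards the ipsilateral side were at chrX:105397235-105398524 (rank 15161.5 ipsilateral and 29181.5 contralateral, ties sharing the mean rank), chr4:119325652-119327819, chr7:107614026-107615888, chr7:18440726-18442308 and chr9:86569628-86570731. In 3 of these 5, on chromosomes X and 7, the ipsilateral peaks covered 1290, 1863 and 1583 bp and the contralateral ones 570, 436 and 208 bp. Ipsilateral H3K9ac was called at all 5, as at 99.3% of all ipsilateral peaks of 1 kb or more, and at the chromosome X region there was no contralateral H3K9ac. The largest shifts towards the contralateral side were at chr4:116275128-116276927 (rank 29417.5 ipsilateral and 14422.5 contralateral), chrX:30830925-30831942, chr2:171195364-171196632, chr3:124129945-124130960 and chr1:192612696-192616524. At the first of these, H3K27me3 was strong on both sides, with folds of 6.90 ipsilateral and 9.12 contralateral. Shifts of rank in H3K4me3 had little relation to those in the second marks: across regions with the second mark on both sides, rho was −0.13 for H3K9ac (18644 regions) and −0.02 for H3K27me3 (6454 regions).

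By chromosome, contralateral-only peaks were the larger share on all 21 chromosomes with 500 or more peaks. Chromosome X had the lowest share on both sides, 5.98% (48 of 803 peaks) ipsilateral-only and 17.1% (140 of 820) contralateral-only. The ipsilateral-only share was highest on chromosome 13, with 28.1% (interval 25.6% to 30.9%), and the contralateral-only share on chromosome 14, with 39.4% (interval 36.7% to 42.1%). The shares followed each other across the chromosomes, with a rho of 0.890 over 21 chromosomes, all from the same lists. The widest gap in relative terms was on chromosome 12, with 7.69% ipsilateral-only (64 of 832) and 31.3% contralateral-only (326 of 1043). Chromosomes 10 and 12 carried 16.6 and 14.6 shared ipsilateral peaks per Mb, chromosome 13 6.99 and chromosome X 4.72, so low ipsilateral-only shares were found on chromosomes both dense and sparse in shared peaks.

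**Figure D5:**
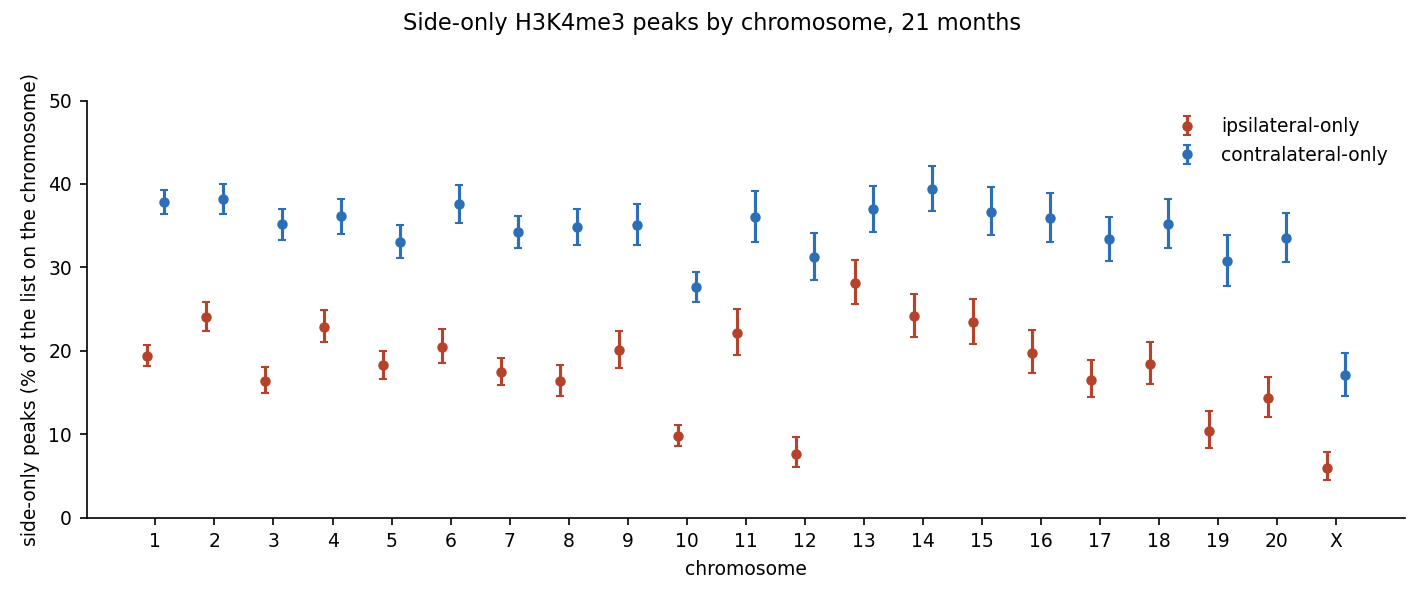
Percent of the H3K4me3 peaks of each list on a chromosome that have no peak of the other side, for chromosomes 1 to 20 and X, with 95% Wilson intervals. The contralateral-only share (blue) is above the ipsilateral-only share (red) on each of the 21 chromosomes, and both are lowest on X.

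On a finer scale, some of the windows densest in side-only peaks were the same in both lists. Windows of 1 Mb had a median of 2 ipsilateral-only and 4 contralateral-only peaks, and 4 of the 10 windows with the most ipsilateral-only peaks were also among the 10 with the most contralateral-only ones. The densest ipsilateral-only window began at chr1:60000001, with 20 ipsilateral-only, 17 contralateral-only and 4 ipsilateral shared peaks. The densest contralateral-only window began at chr6:140000001, with 37 contralateral-only, 15 ipsilateral-only and 6 shared peaks. None of the side-only peaks in these 2 windows had H3K9ac on their side. Other windows among the 10 densest in contralateral-only peaks differed. The one beginning at chr18:30000001 had 35 contralateral-only and 6 ipsilateral-only peaks beside 45 contralateral shared ones. The one beginning at chr7:142000001 had 28 contralateral-only and 2 ipsilateral-only peaks.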

How the data were processed

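H3K4me3, H3K9ac and H3K27me3 were profiled by ChIP-seq in rat brain, from sonicated chromatin and 150-nt paired-end NextSeq reads, per the labels' protocols. Of the read processing, cutadapt, Bowtie2 and HOMER are named, per the submitters' processing notes. The peak caller was MACS 2.1.1.20160309, run with a q-value cutoff of 0.05 on an effective genome of 2.70 Gb, with tags handled as single-end and duplicates reduced to 1 tag a position, per the file headers. No genome build is named in the sources used here. The reference tables at hand are on another build (highest gene end on chromosome 1 at 270492571, highest peak end at 282760941), so no genes or sequences are given.

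Per the file headers, each deposited peak has a pileup (signal), a fold enrichment (ratio) and a −log10 q-value. Length and summit positions are the authors' other columns. The signal was in whole tags in both H3K4me3 lists, and the fold was the highest of the peaks of a region.

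Overlap (at least 1 bp) was computed on sorted intervals in Python (3.11.15; scipy 1.17.1, pandas 2.3.3, numpy 2.4.6) and tested on 20 simulated sets. Groups came from the labels. Alternatives were equal numbers of peaks, a −log10 q-value of at least 5, 50% overlap of the shorter peak, peaks within 1 kb joined, assembled chromosomes only, and equal numbers of peaks of the second mark. Named peaks are the 5 side-only peaks of highest fold, the 5 longest, the 5 largest rank shifts each way and the 3 longest side-only peaks per side, plus, chosen after their values were seen, further side-only peaks of 1 kb or more. The members and lists were chosen with earlier results of these data known. Length and distance classes, 10 groups by fold, 1 Mb windows and lengths at 13 months were added with the data in view.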

Additional observations from a re-analysis of the deposited data

Results flagged for a closer look

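The sides differed in opposite directions at the 2 ages, in values with 1 list behind each, and the difference between ages was not tested. At 21 months 81.8% of H3K4me3 regions with peaks on both sides were longer on the contralateral side, and at 13 months 34.8% were. Peaks of 5 kb or longer numbered 92 ipsilateral and 230 contralateral at 21 months, and 42 ipsilateral and 25 contralateral at 13 months. With peaks within 1 kb joined, the sides lay closer at 13 months, with 219 ipsilateral and 193 contralateral regions. The joined counts at 21 months were 308 and 574. Each age was called in a processing run of its own, and age and run therefore cannot be told apart.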

How the results depend on the processing

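The alternatives run gave 77 values for 18 results. Of these, 43 stayed close to the reported value, and 34 moved beyond its counting interval or count limit. A change of direction was looked for only in the share of matched regions longer contralaterally, which stayed the majority in each alternative. The background shares of second marks and 13-month peaks over all peaks were not recomputed under the alternatives. Each alternative that changed the H3K4me3 lists or the overlap rule also sorted the peaks anew into shared and side-only. Its side-only peaks are therefore not the same set as in the main results. With a −log10 q-value of at least 5 in both lists, 90.9% of ipsilateral and 74.4% of contralateral peaks were shared. H3K9ac was then on 22.5% of ipsilateral-only and 46.4% of contralateral-only peaks, and H3K27me3 on 17.4% and 39.2%. A 13-month peak of the same side lay at 27.5% and 17.1% of them, one of the other side at 9.0% and 20.7%, and 14.9% and 22.9% were within 1 kb of a shared peak. Under this setting 83.0% of matched regions were longer contralaterally, and rho of the folds was 0.82. With equal numbers of peaks, 80.2% and 73.8% were shared, H3K9ac was on 13.2% and 39.3% of side-only peaks, H3K27me3 on 37.2% of contralateral-only ones, and rho was 0.847. The 13-month shares were then 14.3% and 10.9% on the same side and 5.0% and 13.2% on the other, and 23.5% of contralateral-only peaks lay within 1 kb of a shared peak. At 50% overlap, 80.7% and 64.5% were shared, and of ipsilateral-only peaks 12.6% had H3K9ac, 4.79% a 13-month contralateral peak and 12.9% a shared peak within 1 kb. With equal numbers of peaks of the second mark, H3K9ac was on 30.8% and H3K27me3 on 31.3% of contralateral-only peaks. Joining peaks within 1 kb gave 308 ipsilateral and 574 contralateral regions of 5 kb or more. The cause of these moves was not tested, and assembled chromosomes alone moved no value beyond its interval. No paired analysis was possible because the libraries of a side were pooled before peak calling, and for the same reason no library could be left out. A peak not called on a side may lie just under the q-value cutoff there, and depth limits what can be said of the short side-only peaks.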
